A study of Mus musculus with 5 samples.

Results

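The endothelin system comprises 3 peptide ligand genes (Edn1, Edn2 and Edn3), 2 receptor genes (Ednra and Ednrb) and Ece1, the gene of the converting enzyme. These 6 genes were chosen by name, and 5 of them had a probe set listed under their symbol alone, out of 18193 genes in all. The 5 genes had 12 probe sets, of which Edn3 had 4, Ednrb and Ece1 had 3 each, and Edn1 and Edn2 had 1 each. No listed probe set carried the symbol of Ednra, the endothelin A receptor of vascular smooth muscle and pericytes, which is not analysed here. Since 9160 probe sets of the arrays were not listed with a gene, whether the arrays hold one for Ednra is not known.

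Endothelins are made as long precursors, which furin-type proteases cut to an intermediate and which the membrane metalloprotease encoded by Ece1 then cuts to the short active peptide. Receptor A on contractile vessel cells drives constriction, while receptor B on endothelium releases nitric oxide and on retinal glia takes part in the glial response to injury. In the retina, Edn1 is known from vessels, Edn2 from stressed photoreceptors that signal to receptor B on Muller glia, and Edn3 from its role in pigment cells.

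Total RNA came from whole mouse retinas, pooled before hybridisation, with 1 Affymetrix whole-genome array per pool. Diabetic replicates 1 and 2 were pools of 4 retinas from 2 mice each, 5 weeks into diabetes induced with streptozotocin, which destroys the insulin-producing beta cells. Diabetic replicate 3 was a pool of 6 retinas from 3 mice with experimentally induced diabetes of 3 to 4 weeks. Control replicates 1 and 2 were pools of 4 retinas from 2 mice each, of the same age as the diabetic mice, untreated and with normal blood glucose. The sources used here give neither strain nor sex, and no age in weeks. A pool was the unit of replication, and in whole tissue a smaller number of cells of a type cannot be told apart from less RNA per cell.

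All arrays had the same trimmed mean signal of 2500.01, and their median signals lay between 634.6 and 714.7. Rod, Muller glia, vessel and pericyte markers were measured in every pool. The skeletal muscle list stood high in control replicate 2 and diabetic replicate 3 only, with summed signals from 1505 to 49867 over the 5 pools. For beta-actin, the 3' control signal over the 5' one was 4.32 in diabetic replicate 2, against 2.01 to 2.71 elsewhere, and that pool had an 18S ribosomal RNA signal of 11259 against 1477 to 1931.

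Edn2, the ligand known from photoreceptor stress, had the largest absolute difference between the groups among the 5 genes. Its signal was 1943, 1292 and 1594 in diabetic replicates 1 to 3, and 1141 and 1022 in control replicates 1 and 2. Every diabetic pool lay above both controls, with diabetic replicate 1 the highest and control replicate 2 the lowest, and diabetic replicate 3, the pool of shorter diabetes, lay between the other diabetic pools. Diabetic replicate 2 and control replicate 1 were the closest neighbours across the groups, at 10.46 and 10.30 on the log2 scale, a gap smaller than the SD among diabetic pools.

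On the scale of log2(signal + 120.6), used for all log2 values here, the mean of Edn2 was 10.74 ± 0.27 (SD, n = 3) among diabetic pools, against 10.23 ± 0.10 (SD, n = 2) among controls. The difference was 0.51 (SE 0.19, 95% interval 0.08 to 0.95), or 1.42-fold. It did not pass limma's test with Benjamini-Hochberg adjustment over all 10916 tested genes (unadjusted p = 0.0266, adjusted p = 0.999). Edn2 ranked 185 of these genes by p, and its absolute difference was at their percentile 98.8. An exact two-sided permutation test of Edn2 alone gave p = 0.2, where 3 against 2 pools allow no p below 0.1.

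Leaving out diabetic replicate 2 gave an Edn2 difference of 0.65, and leaving out diabetic replicate 1 gave 0.37. The unadjusted limma test of Edn2 stayed under 0.05 without diabetic replicate 2, and no longer did so when any of the other 4 pools was left out. Without both pools of high muscle signal the difference was 0.44.

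Edn1, whose peptide is the main endothelial vasoconstrictor, was arranged the other way. Its signal was 294.8, 358.4 and 375.0 in diabetic replicates 1 to 3, and 474.6 and 431.5 in control replicates 1 and 2. All 3 diabetic pools lay below both controls, with diabetic replicate 1 the lowest. Group means were 8.85 ± 0.13 (SD, n = 3) for diabetic pools and 9.16 ± 0.08 (SD, n = 2) for controls, a difference of -0.31. The gene lay below the filter on dim genes, which kept genes with a mean log2 level above 9.70, so it was not tested there.

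Fitted with all 18193 genes and no filter, the interval of the Edn1 difference was -0.90 to 0.28 (limma, unadjusted p = 0.255, adjusted p = 1). The exact two-sided permutation p for Edn1 alone was 0.1, the smallest the design gives. With single pools left out, the Edn1 difference lay between -0.37 and -0.23.

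Edn3, a ligand of receptor B known from melanocyte and enteric nerve development, was represented by a probe set with signals of 708.8, 535.5 and 610.0 in diabetic replicates 1 to 3, and 544.5 and 527.2 in the controls. Diabetic replicate 1 was high, and diabetic replicate 2 lay between the controls. The difference was 0.16 (interval without the filter on dim genes -0.39 to 0.72, limma adjusted p = 1), and the gene lay below that filter. It was 0.08 when diabetic replicate 1 was left out and 0.25 when diabetic replicate 2 was. The suffix of this probe set (_x_at) marks probes that may also match other transcripts.

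The other Edn3 probe sets were dimmer. One had signals of 198.4, 125.7 and 70.6 in the diabetic pools against 74.6 and 151.0 in controls, again with diabetic replicate 1 the highest and diabetic replicate 2 between the controls, but with diabetic replicate 3 the lowest. A further one had signals of 130.2, 143.4 and 99.9 in diabetic replicates 1 to 3, 115.8 in control replicate 1 and 303.1 in control replicate 2, which stood alone. Another, of suffix _s_at for probes shared among transcripts, was at 175.0 and 200.2 in diabetic replicates 1 and 2 but at 36.7 in diabetic replicate 3, 30.9 in control replicate 1 and 40.7 in control replicate 2. Differences of the 4 Edn3 probe sets ran from -0.37 to 0.66, and the groups overlapped in each. With probe sets of both suffixes left out, the difference for Edn3 turned to -0.37.

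Ednrb encodes receptor B, found on retinal glia and endothelium. Its brightest probe set had signals of 2326, 1924 and 2811 in diabetic replicates 1 to 3, and 2309 and 2587 in control replicates 1 and 2. Diabetic replicate 3 was the highest and diabetic replicate 2 the lowest, with both controls between them. Diabetic replicate 1 and control replicate 1 were nearly equal, at 11.26 and 11.25 on the log2 scale.

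Means for Ednrb were 11.26 ± 0.26 (SD, n = 3) and 11.32 ± 0.11 (SD, n = 2), a difference of -0.07 (SE 0.17, 95% interval -0.45 to 0.31, limma adjusted p = 0.999). The interval leaves room for a difference in either direction, and the sign turned without diabetic replicate 2 (0.06) or control replicate 2 (0.01) and with array weights (0.03). It was -0.20 when diabetic replicate 3 was left out and -0.15 when control replicate 1 was. Diabetic replicate 2, the pool with the high actin ratio, had the lowest signal in all 3 Ednrb probe sets. The part of RNA quality in these values was not tested. The other Ednrb probe sets differed by -0.08 and -0.36, with overlapping groups.

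Ece1, the converting enzyme gene, had signals of 2362, 3447 and 2659 in diabetic replicates 1 to 3, and 2843 and 3317 in the controls. Diabetic replicate 2 was the highest and diabetic replicate 1 the lowest, so the groups overlapped fully. Means were 11.51 ± 0.27 (SD, n = 3) and 11.64 ± 0.15 (SD, n = 2), a difference of -0.13 (SE 0.17, 95% interval -0.52 to 0.25, limma adjusted p = 0.999). It was -0.02 when diabetic replicate 1 was left out, -0.03 for control replicate 2, -0.24 for control replicate 1 and -0.28 for diabetic replicate 2, and 0.01 without both pools of high muscle signal. The dimmer Ece1 probe sets differed by 0.18 and -0.22, in opposite directions.

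**Figure D1:**
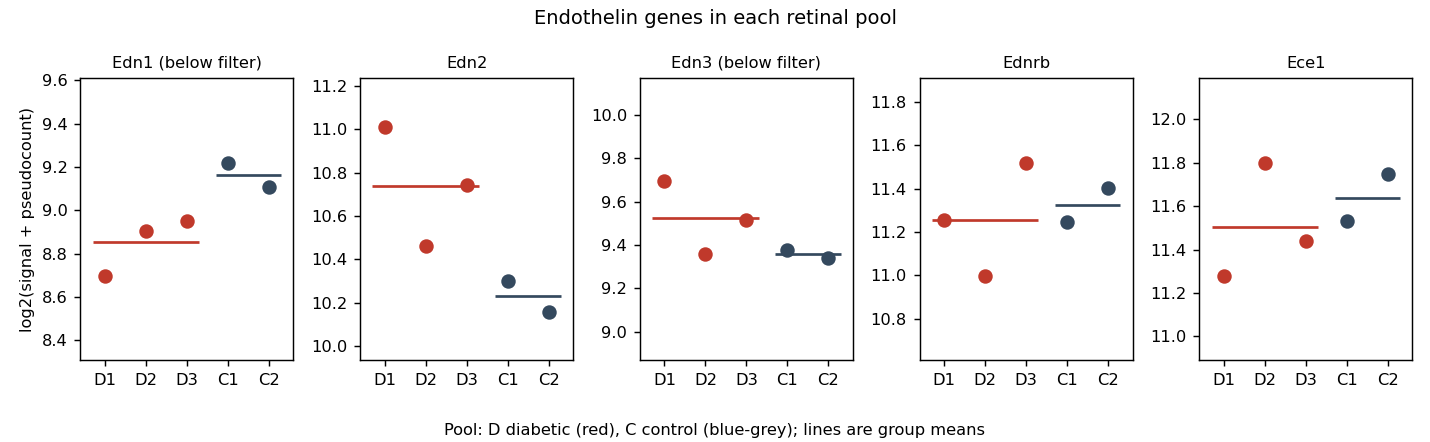
Level of each endothelin gene with a probe set in the 5 retinal pools, as log2(signal + 120.6) on the y axis; D marks diabetic and C control replicates, points are pools and lines are group means. The 3 diabetic pools lie above both controls for Edn2 and below both for Edn1, and the groups overlap for Edn3, Ednrb and Ece1.

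Across the members, 0 of the 3 tested genes (Edn2, Ednrb and Ece1) passed an adjusted p of 0.05, as did 0 of all 10916 tested genes (0%). At an unadjusted p under 0.05 there was 1 of 3, Edn2, against 370 genes or 3.39% of all. The groups did not overlap in 1 of 3, against 18.1% of all tested genes, 9.99% with higher and 8.15% with lower diabetic pools. Among all genes with a probe set, the share lower in every diabetic pool, as Edn1 was, stood at 9.07%. A difference of 0.5 or more in either direction was found for Edn2 and for 1.32% of tested genes. The median difference of the 3 tested members was -0.07, beside 0.00602 over all tested genes. Each count of 1 rests on Edn2 alone.

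Of the 12 probe sets, 5 had positive and 7 negative differences. When all 45037 probe sets other than controls were fitted as separate features, the 95% interval excluded 0 in 1 of the 12, that of Edn2 (0.03 to 0.99, limma unadjusted p = 0.0401, adjusted p = 1). The groups were apart in 2 of the 12, those of Edn1 and Edn2, against 18.2% of all probe sets.

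**Figure D2:**
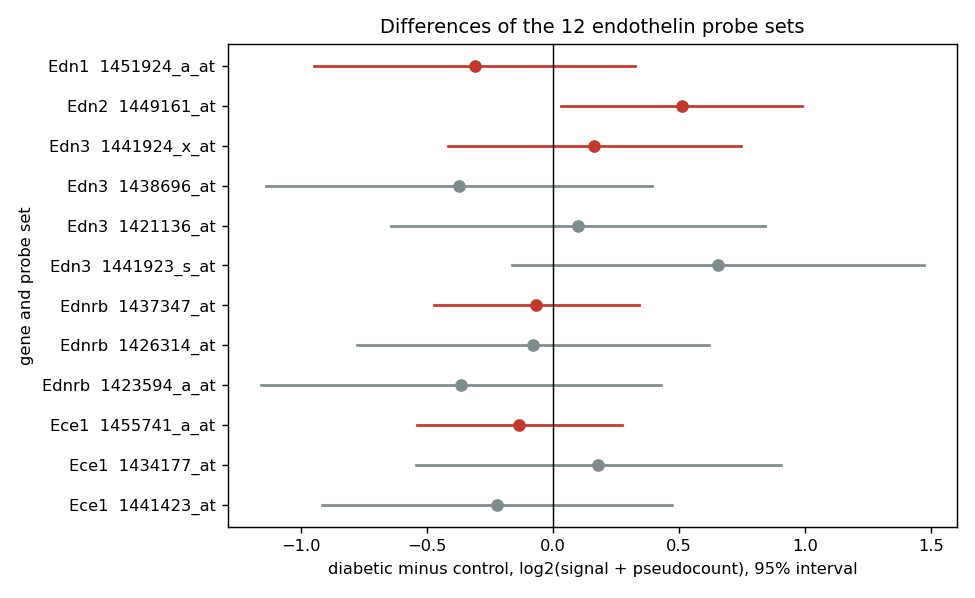
Diabetic minus control difference of the 12 endothelin probe sets on the log2(signal + 120.6) scale (x axis), with 95% intervals from limma over all probe sets; red marks the probe set that represents its gene and grey the others. The interval of Edn2 (0.03 to 0.99) excludes 0, and the Edn3 probe sets run from -0.37 to 0.66.

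By pattern over the 5 pools, the tested genes closest to each member were found by the root mean square difference of log2 deviations from the gene's own mean, among 10512 genes. For Edn2 these were Ctns (0.086), the cystine transporter of lysosomes, Mmgt2 (0.093) and Trmt9b (0.094). For Edn1 they were Nudt5 (0.031), Osbpl7 (0.035) and Zyg11b (0.040). For Ednrb they were Cdc25a (0.025), a cell cycle phosphatase, Ccnyl1 (0.031) and Cep85 (0.034). For Ece1 they were Nt5c3b (0.012), Trim32 (0.023) and Trim27 (0.027). Likeness over 5 pools is given as a description only. Edn3 varied by less than 0.5 over the pools and was not matched.

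The rest of the pathway was followed in 6 lists of 62 genes, of which 40 were tested. Of these, 0 passed an adjusted p of 0.05 in limma, 2 had an unadjusted p under 0.05 (5.00%), 23 were higher and 17 lower, and the groups did not overlap in 7 (17.5%), near the 18.1% of all tested genes. Their median difference was 0.04.

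Among genes of peptide processing and breakdown, 2 of 4 tested were higher and 2 lower (median -0.02, and 0.03 with arrays centred on their medians). Ece2, a second converting enzyme, had log2 levels of 10.32, 9.96 and 9.90 in the diabetic pools (replicates 1 to 3) against 10.56 and 10.17 in controls, a difference of -0.31 (SE 0.21) with overlapping groups, which became -0.11 when control replicate 1 was left out and -0.50 when control replicate 2 was. Ctsa, a lysosomal carboxypeptidase that inactivates endothelin, was lower in each diabetic pool, by -0.10 (SE 0.09). Diabetic replicate 2 and control replicate 2 nearly met, at 12.82 and 12.83. The Ctsa difference was -0.28 with the mean over its probe sets and -0.055 with arrays centred on their medians. Furin, the protease of the first cut, differed by 0.11 (95% interval -0.22 to 0.44).

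Among genes of receptor coupling and desensitisation, 9 of 12 tested were higher and 3 lower (median 0.07). Plcb4, a phospholipase C of G-protein signalling, was at 14.28, 14.39 and 14.34 in diabetic and at 14.24 and 14.16 in control pools, a difference of 0.13 (SE 0.08) with the groups apart. Plcb2, of the same family, differed by -0.42 (SE 0.25) with overlapping groups, and by -0.21 when control replicate 1 was left out or -0.26 when diabetic replicate 2 was. The G-protein alpha subunits Gnaq and Gna11, which carry the signal of both receptors, differed by 0.06 (95% interval -0.20 to 0.31) and 0.02 (-0.23 to 0.27). This median became 0.12 when diabetic replicate 1 was left out and 0.02 when diabetic replicate 2 was.

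Gpr37, an orphan receptor related in sequence to receptor B, had log2 levels of 13.88, 13.91 and 13.81 in diabetic pools against 13.74 and 13.62 in controls. All diabetic pools were above both controls, by a small difference of 0.19 (SE 0.08, limma unadjusted p = 0.0482, adjusted p = 0.999). It was the only tested gene of its list, since Gpr37l1 lay below the filter.

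The list of photoreceptor injury and gliosis signalling holds genes that act beside Edn2 when photoreceptors are damaged. Of its 7 tested genes 5 were higher and 2 lower (median 0.09, and with 1 pool left out -0.00808 for diabetic replicate 3, 0.16 for diabetic replicate 2 and 0.06 for control replicate 1). Cebpd, a transcription factor of the acute response, had log2 levels of 10.94, 10.60 and 10.36 in diabetic pools against 10.19 and 10.31 in controls. The diabetic pools lay above the controls, although diabetic replicate 3 and control replicate 2 nearly met, and the difference was 0.38 (SE 0.20, limma unadjusted p = 0.0886, adjusted p = 0.999). For Cebpd it was 0.14 with the mean over its probe sets, 0.23 when diabetic replicate 1 was left out and 0.58 without both pools of high muscle signal. Osmr, the oncostatin M receptor, differed by 0.18 (SE 0.14) with the groups apart, and by -0.12 with the mean over its probe sets. Osmr was at 0.07 when control replicate 1 was left out and at 0.28 when control replicate 2 was.

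In the other measured genes of that response the groups overlapped. Lif, the cytokine that can induce Edn2 after photoreceptor damage, and Fgf2 were below the filter, with differences of 0.12 and 0.43. Gfap, the filament of reactive glia, was at 9.61, 10.04 and 9.83 in diabetic and 9.86 and 9.83 in control pools. Stat3, the transducer of cytokine signals, differed by 0.11 (95% interval -0.22 to 0.44) and its feedback inhibitor Socs3 by 0.04 (-0.51 to 0.59).

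Of 12 tested regulators of endothelin transcription, 6 were higher and 6 lower (median -0.01, and -0.06 to 0.04 over the alternatives). Jun, a subunit of the AP-1 factor, which binds the promoter of Edn1, was lower in all 3 diabetic pools, as was Edn1. This held for 8.15% of all tested genes, and pools within each group were ordered otherwise for Jun than for Edn1. Levels of Jun were 12.83, 12.85 and 12.80 in diabetic pools against 13.34 and 13.95 in controls. The Jun difference of -0.82 (SE 0.16) had an unadjusted p of 0.000676 and an adjusted p of 0.999 in limma. It was -0.52 without control replicate 2. The part of Jun in the Edn1 values was not tested. Fos, the partner of Jun, differed by 0.00174 (95% interval -0.32 to 0.33). Arnt, the shared subunit of hypoxia factors, was low in diabetic replicate 3 alone, at 11.42 against 12.45 to 12.98 in the other pools. Its difference of -0.55 (SE 0.34) became 0.06 without both pools of high muscle signal, -0.16 when diabetic replicate 3 was left out and -0.33 when control replicate 2 was. Hif1a, the oxygen-regulated subunit, differed by -0.02 (95% interval -0.22 to 0.18).

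Other vasoactive signals had 4 tested genes, of which 0 were higher and 4 lower (median -0.19). With single pools left out this median ran from -0.02 (diabetic replicate 3) to -0.33 (control replicate 2). It was -0.01 with no filter on dim genes and -0.003 with the mean over probe sets. Genes of this list below the filter went in both directions, from -0.36 for Adm to 0.41 for Ptgs2. Nos3, the endothelial nitric oxide synthase, had the largest tested difference, -0.34 (SE 0.69). Nos1, the neuronal nitric oxide synthase, differed by -0.32 (SE 0.28), by 0.11 with the mean over its probe sets, and by -0.06 (control replicate 1 left out) to -0.57 (control replicate 2 left out) with single pools left out. Gucy1a1, a subunit of the nitric oxide receptor, differed by -0.06 (SE 0.10), by 0.09 with the mean over its probe sets, and by -0.00377 (diabetic replicate 1 left out) to -0.15 (diabetic replicate 2 left out) with single pools left out. The groups overlapped for all 4.

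**Figure D3:**
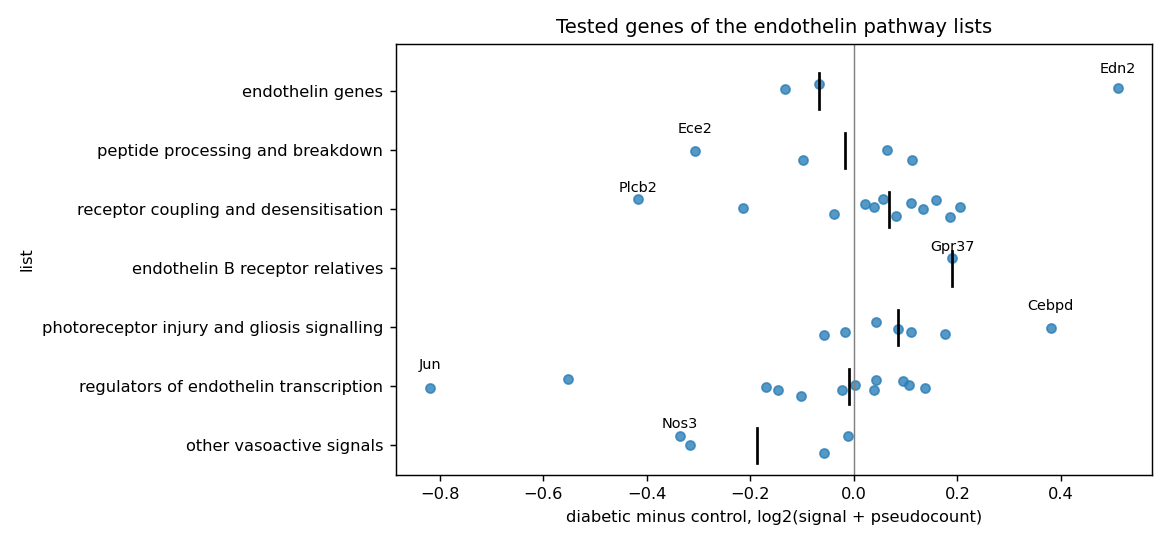
Diabetic minus control difference on the log2(signal + 120.6) scale (x axis) of each tested gene in the endothelin family and the 6 pathway lists; points are genes, black bars are list medians, and the gene of the largest absolute difference in each list is named. Edn2 (0.51), Jun (-0.82) and Plcb2 (-0.42) lie farthest from 0 in their lists, and all list medians lie between -0.19 and 0.19.

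Markers of the cells that make or sense endothelins were set beside these values. The 4 measured rod genes differed by 0.04 to 0.07, and their summed signal was 430453 to 489294 in diabetic and 415907 to 478708 in control pools. Summed Muller glia signal was 234735 to 246127 in diabetic and 217281 to 252686 in control pools, with 6 of 8 genes higher. Summed endothelial signal was 18559 to 21512 in diabetic and 19207 to 19945 in control pools. The 4 tested endothelial genes, Kdr, Flt1, Cldn5 and Esam, differed by 0.01 to 0.12. Pecam1 and Tek, also endothelial and below the filter, were lower in each diabetic pool, as Edn1 was, by -0.93 and -0.23. Their limma intervals, fitted without the filter, were -2.02 to 0.16 for Pecam1 and -0.74 to 0.29 for Tek. For Pecam1 the highest diabetic and the lowest control pool nearly met, at 9.02 and 9.12. Cdh5 and Vwf, the other endothelial genes below the filter, differed by -0.005 and -0.17, with overlapping groups. The part of endothelium in the Edn1 values was not tested. Pericyte and smooth muscle signal summed to 10042 to 11768 in diabetic and 9186 to 11358 in control pools, and astrocyte signal to 3819 to 4409 and 4211 to 4545. By summed signal, the groups overlapped for each of these vessel, rod and glial lists. By mean log2 level, which weighs bright and dim genes alike, the endothelium list was lower in every diabetic pool. Levels were 10.53, 10.45 and 10.58 in diabetic pools against 10.65 and 10.63 in controls. This gap is small and leans on Pecam1, at 9.02, 7.43 and 8.52 in diabetic pools against 9.12 and 9.40 in controls. It is not a shift of the list as a whole, since the 4 tested genes had positive differences.

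Pigment epithelium genes separated the groups on both measures, with diabetic pools lower. This group direction was opposite to that of Edn2 and the same as that of Edn1, although pools within each group were ordered otherwise than for Edn1. All 5 tested of 6 were lower in diabetic pools, with a median of -1.49, and their summed signal was 47463 to 73654 in diabetic and 91688 to 137249 in control pools. No marker of the list stood at 0, and Best1 was below the filter. Control replicate 2, with the highest signal of this list, was also the pool in which one Edn3 probe set stood out at 303.1. Melanosome genes followed no group, at summed signals of 2672 to 22144 in diabetic and 4685 to 18348 in control pools. The part of pigment epithelium in the endothelin values was not tested.

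**Figure D4:**
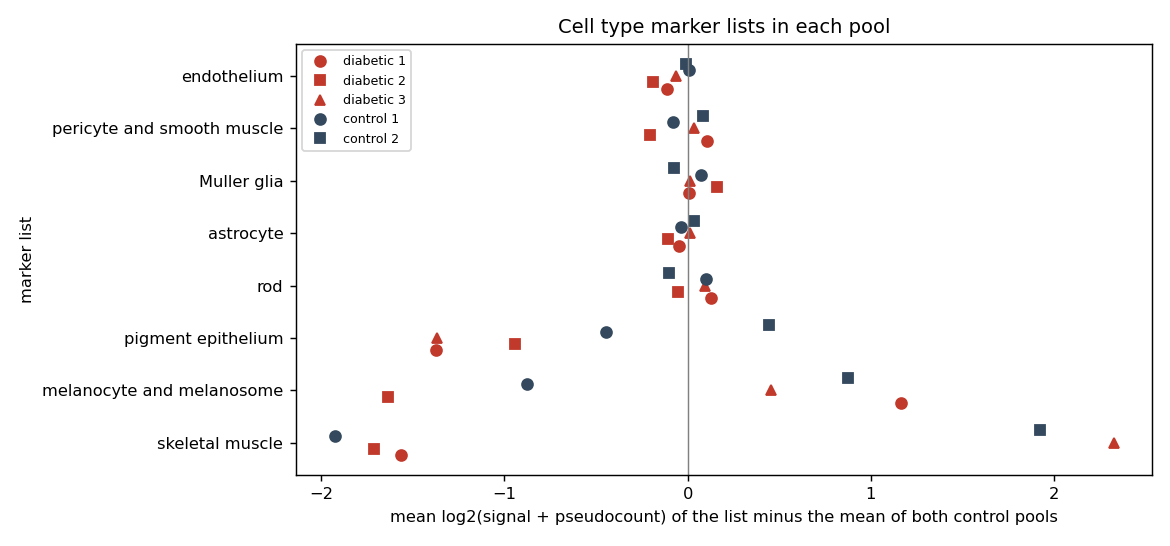
Mean log2(signal + 120.6) of each cell type marker list in each pool, minus the mean of both control pools (x axis); red symbols are diabetic and blue-grey symbols control replicates. The groups separate for the pigment epithelium list, at mean levels of 10.83 to 11.26 in diabetic and 11.75 to 12.64 in control pools. They separate by less for the endothelium list, at 10.45 to 10.58 against 10.63 to 10.65, a gap that leans on Pecam1 (-0.93). The muscle list is high in diabetic replicate 3 (12.36) and control replicate 2 (11.97).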

How the data were processed

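The authors deposited a linear intensity for each of 45101 probe sets. Their equal trimmed means (the lowest and highest 2% left out) are what global scaling gives. How probe signals were summarized and background was corrected is not given in the sources used here, which leaves low values uncertain. Of the rows, 64 were control probe sets, 34945 had 1 gene symbol, 932 several and 9160 were not listed. Symbols were updated by Entrez ID with a gene table of GRCm38.p6, which matched 34741 of them.

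Values were taken as log2(signal + 120.6), the pseudocount being the 20th percentile. Folds on this scale understate changes of dim genes. A gene took its probe set of highest mean, and the upper 60% of genes, 10916, were tested with limma 3.58.1 (lmFit, eBayes with trend, 3 residual degrees of freedom) in R 4.3.3, with Benjamini-Hochberg adjustment at 0.05. The steps were tested on simulated data, with random noise and planted differences of 1 and 2 on the log2 scale. Smaller differences, such as those of the endothelin genes, were not simulated. Plots used matplotlib 3.10.9.

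Named genes were the members, the 2 tested genes of smallest p in each pathway list, and the 3 closest in pattern to each member that varied by 0.5 or more. Gnaq, Gna11, Furin, Stat3, Socs3, Gfap, Fos, Hif1a, single marker genes and the genes below the filter were named after their values were seen. Members and lists were chosen with earlier results of these data known. The labels do not say whether pools were processed together or came from separate mice, so p-values speak of these pools only. In limma they set a group difference against the spread among pools, with each gene's variance drawn towards a trend over all genes fitted. The number of arrays limits the precision.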

Additional observations from a re-analysis of the deposited data

Results flagged for a closer look

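The Edn3 probe set of suffix _s_at, which does not represent its gene, was above the control level in both pools of 5 weeks of diabetes. In diabetic replicate 1 it exceeded the higher control by 0.87 on the log2 scale, and in diabetic replicate 2 by 0.99. Diabetic replicate 3 lay at the level of the controls, and the other 3 Edn3 probe sets did not show this split. The signals were dim, at 36.7 in diabetic replicate 3 and at 30.9 and 40.7 in the controls. These 3 values lay below 120.6, the 20th percentile of all deposited values, where signals are uncertain.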

How the results depend on the processing

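In limma, 0 endothelin genes passed an adjusted p of 0.05 under each of the 18 alternatives. Edn2 kept its direction in all 18 (0.37 to 0.65) and had an unadjusted p under 0.05 in 12 of the 17 that tested it. Most of these 12 refitted the same pools, and every setting in which Edn2 did not pass left pools out. Edn1 kept its direction in all 18 (-0.42 to -0.15). The alternatives without both pools of high muscle signal, without probe sets of suffix _s_at or _x_at, and with all probe sets as separate features were chosen after seeing the data. Over all genes, 0 passed in the fit reported (370 at an unadjusted p under 0.05), 2 with a replicate block, 2 without both pools of high muscle signal, and 0 to 1 with single pools left out (1 without diabetic replicate 2 and 1 without diabetic replicate 3). Signs turned for Edn3 without both suffixes (-0.37), for Ednrb with array weights (0.0306) and with single pools left out (-0.197 to 0.0624), for Ece1 without both pools of high muscle signal (0.00618) and Arnt likewise (0.0638), and with the mean over probe sets for Osmr (-0.12), Nos1 (0.11) and Gucy1a1 (0.0950). The cause was not tested. The labels do not say that a shared replicate number pairs pools, and correlations cannot check it, since deviations of the 2 controls from their mean mirror each other (0.13 and -0.13 with diabetic replicate 1 across genes). With the replicate block, which leaves diabetic replicate 3 out of the comparison, Edn2 differed by 0.51 and Ednrb by -0.20. Leaving out a control leaves 1, assumed to vary like the diabetic pools.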

Other observations

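Of the 59 pathway genes with a probe set, 40 were tested and the rest lay below the filter on dim genes. From this rest, 2 were singled out after their values were seen, the only ones with an unadjusted limma p under 0.05 without the filter. Differences of the others went in both directions. Gpr37l1, a glial orphan receptor related to receptor B, had log2 levels of 8.64, 8.89 and 8.12 in diabetic pools against 9.52 and 9.37 in controls. All diabetic pools were lower, by -0.89 (95% interval -1.62 to -0.17, limma without the filter, unadjusted p = 0.0226, adjusted p = 1). Kel, a protease that can activate Edn3, had levels of 8.07, 7.58 and 7.28 in diabetic pools against 8.41 and 8.39 in controls, lower by -0.76 (95% interval -1.46 to -0.05, unadjusted p = 0.0393, adjusted p = 1). With Gpr37l1 included, the median of the receptor B relatives was -0.35 in place of 0.19. Of all 18193 genes 3.82% had an unadjusted p under 0.05 without the filter.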
